A study of Mus musculus with 3 samples.

Results

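The ESCRT proteins and their partners in vesicle release were followed as 33 genes in cells given vesicles. The genes were chosen by name for their known roles, without a threshold on values, and all 33 were found among the 27179 genes of the table. The cells were wild-type mouse bone marrow stromal cells (mBMSCs), kept at 3% oxygen and given extracellular vesicles from mouse bone marrow plasma for 3 days. The Ocn-EV preparation was from a cross of the CAGS-Snorkel allele with Ocn-Cre, driven by the osteocalcin promoter of mature osteoblasts. Prx1-EV vesicles came from the cross with Prx1-Cre, a driver of limb bud mesenchyme and of the skeletal cells derived from it. The control, All-EV, was prepared from wild-type animals. Donor mice were C57BL/6N, 6 months old, and the plasma of 5 mice (2 males and 3 females) was pooled into 1 sample for each vesicle group. An HA antibody on magnetic beads is described for all groups, but how it captured vesicles of the wild-type mice is not explained. RNA of the treated cells was sequenced as 1 library per group. Differences below therefore compare single libraries, without replicates or p-values. Values given in threes follow the order All-EV, Ocn-EV, Prx1-EV.

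ESCRT complexes bud and cut membranes away from the cytoplasm, which makes the internal vesicles of late endosomes, closes dividing cells and mends membranes. ESCRT-0 gathers ubiquitin-tagged cargo, ESCRT-I and ESCRT-II shape the bud, ESCRT-III filaments narrow its neck, and the VPS4 ATPases take the filaments apart. Internal vesicles are broken down when RAB7 brings the endosome to a lysosome, or leave the cell as exosomes when RAB27 proteins dock the endosome at the plasma membrane. Syntenin and ALIX link syndecan cargo to ESCRT-III, ARF6 controls that route, and neutral sphingomyelinase makes ceramide for a route that needs less ESCRT.

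Gene-assigned reads numbered 15558165, 14233978 and 17269204. Levels are deposited normalised counts, and bracketed ranges are 95% exact intervals that cover counting error only. Ratios are log2((a + 1)/(b + 1)), so a pseudocount of 1 pulls low genes toward 0. A macrophage list of 15 genes, all with reads in each library, took 1.43%, 1.09% and 0.936% of reads. Much of that difference lay in Lyz2 (123980, 49971 and 46480 reads) and Itgam (20139, 8242 and 8634), and the list's members went both ways. With Ocn-EV 6 of the 15 were at least 1.5-fold higher and 3 lower (median log2 ratio 0.22), and with Prx1-EV 4 and 5 (median 0.25). Of all 11067 genes tested, 13.8% were that much higher and 13.6% lower with Ocn-EV, and 12.7% each way with Prx1-EV. A stromal list of 13 genes took 0.0850%, 0.535% and 0.350%, with 12 genes detected in each library and Lum at 0 in all 3. Of its 9 genes tested, 7 were at least 1.5-fold higher and 0 lower, both with Ocn-EV and with Prx1-EV. Their median log2 ratios over the 9 were 1.24 with Ocn-EV and 0.79 with Prx1-EV. Among the stromal genes left untested for low counts, Dcn went the other way, with 23, 3 and 3 reads. Pdgfra had 12, 60 and 21 reads, and Lepr 11, 16 and 13. The cultures are labelled as stromal cells, yet the macrophage list took the larger share of reads in every library. Both shares differed between the groups, and their part in the results below was not tested. Fewer cells of a type and less RNA per cell cannot be told apart in such bulk samples.

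Most of the machinery was well expressed in every library, and syntenin and ESCRT-III genes were among the most abundant members. Of the 33 genes, 30 had a mean level of at least 50 normalised counts, the minimum for entering the comparisons. The 3 below it were Rab27a, Rab27b and Smpd3. Compared per kilobase, the highest level belonged to Sdcbp, which encodes syntenin, at 6388, 5537 and 5852 normalised counts. Chmp4b, the main filament-forming ESCRT-III subunit, came next in All-EV at 3256 per kilobase, above Rab7 at 2696. In the other two libraries that order was turned, with Rab7 at 2659 and 2758 per kilobase above Chmp4b at 2019 and 2034. Arf6 stood at 1982, 2102 and 2102 per kilobase, and Chmp2a at 1814, 1538 and 1590.3. The least abundant of the 30 genes per kilobase were Vps37a in All-EV (110) and Vps36 in Ocn-EV (103) and Prx1-EV (102). The 33 genes together took 0.373% (0.370 to 0.376), 0.399% (0.395 to 0.402) and 0.405% (0.402 to 0.408) of all reads. Sdcbp alone held 15495 of the 58019 reads of the set with All-EV, 14678 of 56740 with Ocn-EV, and 18414 of 69922 with Prx1-EV.

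**Figure D1:**
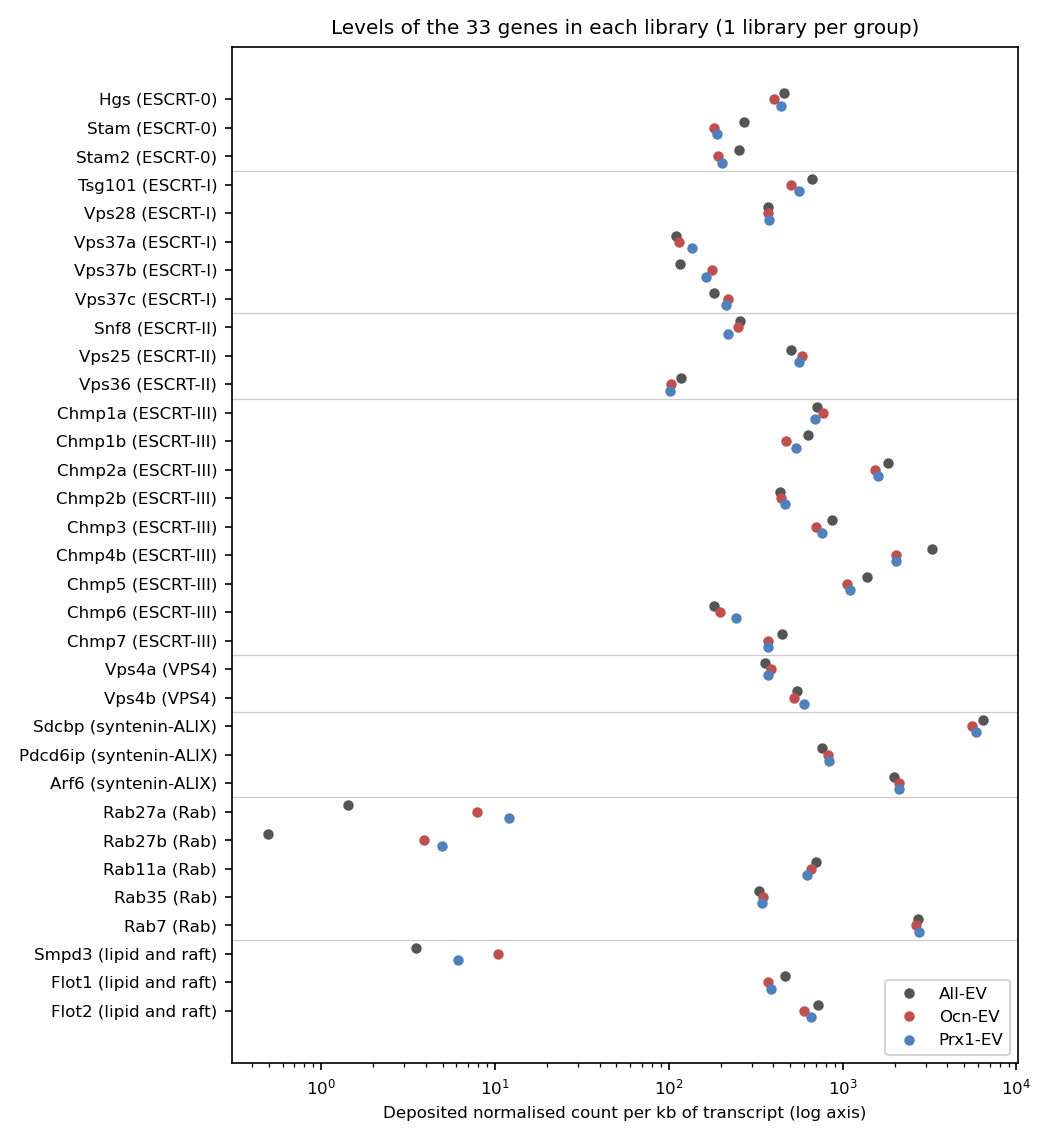
Levels of the 33 genes as deposited normalised counts per kilobase of transcript (log axis), 1 point per library, grouped by role. Sdcbp, Chmp4b and Rab7 lie farthest right in All-EV, and Rab27a, Rab27b and Smpd3 lie far below the rest.

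The first question was whether the machinery differed between cells given vesicles of the Cre crosses and cells given control vesicles. Most of it differed by little. With Ocn-EV, 1 of the 30 genes was at least 1.5-fold higher than with All-EV, the ESCRT-I subunit gene Vps37b, against 13.8% of all 11067 genes tested. In the same comparison 2 were at least 1.5-fold lower, Chmp4b and the ESCRT-0 gene Stam, against 13.6% of all genes. With Prx1-EV, 0 of the 30 were at least 1.5-fold higher, against 12.7% of all genes, and 1 was lower, Chmp4b, also against 12.7%. With libraries scaled to the same total (equal totals), 1 was higher and 0 lower with Ocn-EV (Vps37b), against 24.7% and 6.65% of all genes. With Prx1-EV 2 were higher (Vps37b and Chmp6) and 0 lower under that scaling, against 22.9% and 6.51%. None of the 30 was 2-fold apart in either comparison under the deposited scaling. Of all genes, 6.27% were at least 2-fold higher and 4.20% lower with Ocn-EV, and 5.12% and 3.66% with Prx1-EV. Both comparisons use the same All-EV library, so their values are not independent.

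The ratios of the 30 genes ran from −0.69 to 0.60 (log2) with Ocn-EV and from −0.68 to 0.50 with Prx1-EV, Chmp4b being the lowest and Vps37b the highest in both. Their median was −0.08 with Ocn-EV and −0.09 with Prx1-EV, where the median of all genes tested was −0.02 and 0.00. When the libraries were scaled to the same total, the median of all genes moved up by 0.26 and 0.22, and that of the 30 genes became 0.18 and 0.14, so the sign of the set's median depends on scaling. That rescaling turned 9 of the 30 genes in each comparison from negative to positive, which left 10 of 30 below 0 with Ocn-EV and 8 with Prx1-EV. In TPM, reads per kilobase scaled to a common sum, 2 of 30 were below 0 in each comparison, Stam and Chmp4b. The SD of the ratios across the 30 genes was 0.27 with Ocn-EV and 0.26 with Prx1-EV, against 0.71 and 0.66 across all genes tested. Counting error alone was small for most of these genes. With Ocn-EV the counting interval lay above no difference for 6 of 30 genes, against 32% of all genes, and below it for 13, against 35%. With Prx1-EV it lay above for 7, against 33%, and below for 14, against 33.7%.

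**Figure D2:**
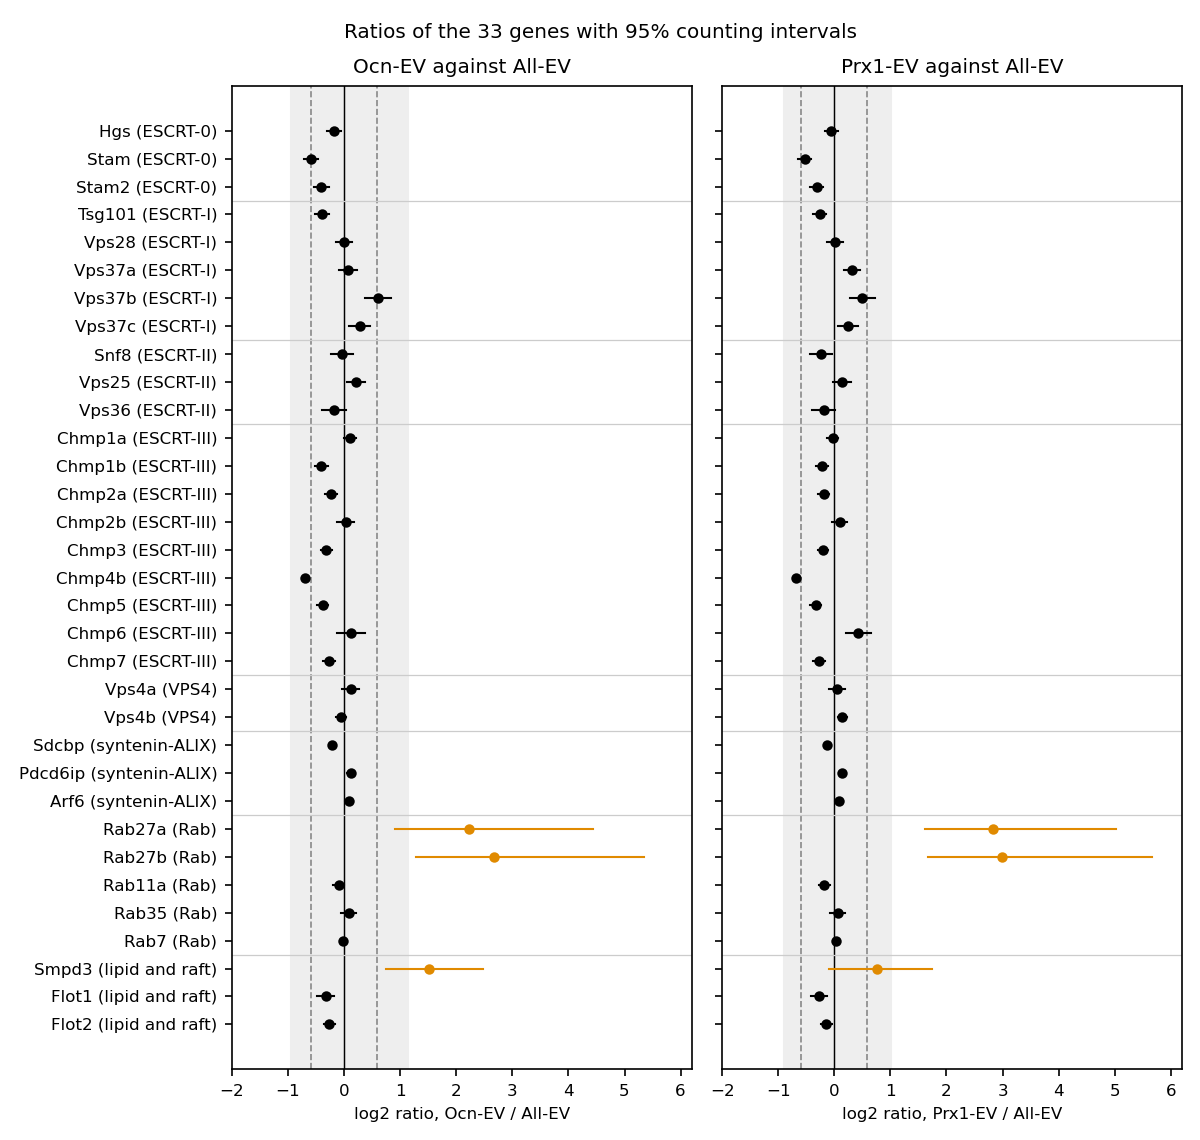
Log2 ratios of the 33 genes to All-EV with 95% counting intervals, for Ocn-EV (left) and Prx1-EV (right). Orange marks the 3 genes below the expression minimum, dashed lines mark 1.5-fold, and grey spans the central 90% of all genes tested. Of the black points, Chmp4b lies left of the dashed line in both panels and Stam at that line in the left panel, neither being past it with equal totals. Vps37b lies at the right line in the left panel and is past it in both comparisons with equal totals.

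ESCRT-0, the cargo-gathering complex, pairs HGS (also called HRS) with one of 2 STAM adaptors. Stam stood at 1363, 907 and 947. Its level was thus highest in All-EV, with log2 ratios of −0.59 (−0.71 to −0.46) for Ocn-EV and −0.53 (−0.65 to −0.41) for Prx1-EV. The Ocn-EV value lies just past the 1.5-fold line, and it no longer passes with TMM factors (−0.57). Stam2 stood at 1194, 903 and 959.6 normalised counts. Its ratios were −0.40 (−0.53 to −0.27) and −0.31 (−0.44 to −0.19). Hgs, the most abundant of the 3 per kilobase, stood at 1330, 1176 and 1283. The Hgs ratios of −0.18 and −0.05 turned positive with equal totals, while those of Stam2 did so in TPM and those of Stam under neither.

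ESCRT-I joins TSG101, which grips ubiquitin and viral or cellular budding motifs, with VPS28 and 1 of several VPS37 subunits. Its members went different ways. Tsg101, the most abundant per kilobase, stood at 1304, 989.9 and 1089.6. The Tsg101 ratios were −0.40 (−0.52 to −0.27) and −0.26 (−0.38 to −0.14), and both turned positive in TPM. Vps28 stood at 800.1, 799 and 808 normalised counts, level across the libraries under the deposited scaling. Its ratio with Ocn-EV turned positive with equal totals, with TMM factors and in TPM. Vps37b stood at 293, 446 and 414, lowest in All-EV. The Vps37b ratios were 0.60 (0.38 to 0.83) and 0.50 (0.27 to 0.72), and the first was 0.50 after correction for transcript length and GC, within 1.5-fold. Of the exon bases of Vps37b, 32.9% also lie in Hip1r on the other strand, and reads of the pair cannot be separated if counting ignored strand. Hip1r itself was listed at 49.8, 51.8 and 53.2, close to level. Vps37c stood at 487, 590.2 and 574, with ratios of 0.28 and 0.24. Vps37a stood at 702, 734 and 872, with ratios of 0.07 (−0.09 to 0.22) and 0.31 (0.17 to 0.46).

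ESCRT-II, which bridges ESCRT-I to ESCRT-III, differed little under the deposited scaling. Vps25, its most abundant subunit gene per kilobase, stood at 618, 717 and 682, with ratios of 0.21 (0.05 to 0.38) and 0.14 (−0.02 to 0.30). In TPM Vps25 was at least 1.5-fold higher with Ocn-EV, as were 34.9% of all genes. Of the exon bases of Vps25, 67.2% are shared with Ramp2 on the same strand, so its count is less certain. Ramp2 was listed at 3.40, 5.18 and 5.23, but how shared reads were counted is not stated. Snf8 stood at 454, 442 and 386, and Vps36 at 418, 368 and 366. Their ratios lay between −0.23 and −0.04 over both comparisons, and with equal totals those of Vps36 in both and of Snf8 with Ocn-EV turned positive.

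ESCRT-III filaments are built of CHMP proteins. The gene farthest from All-EV among the 30 was Chmp4b, whose product polymerises into these filaments. It lies on chromosome 2 of GRCm38.p6 (154657026 to 154694783). Chmp4b stood at 5262, 3263 and 3286 normalised counts. All-EV was the high library and the other two were level with each other. The level was 1.61-fold lower with Ocn-EV, a log2 ratio of −0.69 (−0.76 to −0.62), and 1.60-fold lower with Prx1-EV, −0.68 (−0.74 to −0.62). With equal totals the ratios were −0.43 and −0.45, and after correction for transcript length and GC −0.57 and −0.54. Chmp4b thus stayed below All-EV under both settings but was no longer 1.5-fold apart.

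As the gene past 1.5-fold in both comparisons, Chmp4b is shown with the 250 bases before its RefSeq start (GRCm38.p6, chr2:154656776-154657025, plus strand), 5′ to 3′, with a match to the ETS core CCGGAA in capitals:
Chmp4b: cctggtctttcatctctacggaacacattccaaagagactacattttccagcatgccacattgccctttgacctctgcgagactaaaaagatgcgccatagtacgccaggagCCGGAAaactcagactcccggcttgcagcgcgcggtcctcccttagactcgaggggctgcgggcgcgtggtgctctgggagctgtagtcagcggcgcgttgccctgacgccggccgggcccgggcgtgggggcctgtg
Such windows were at hand for 21 of the 33 genes (25 windows) and were searched on both strands. Some genes gave several windows, so the counts below are of windows and not of genes. The windows they are set against were not limited to genes expressed in these cells. The ETS core was in 9 of the 25 windows, against 12.0% of all 32851 windows. The antioxidant response core TGACNNNGC was in 6 of 25, against 10.2%, and the E-box CACGTG in 2, against 6.02%. The GC box GGGCGG was in 12 of 25 against 32.7%, the CCAAT box in 7 against 33.8%, and the interferon-stimulated response element core in 0 against 2.98%. Of these 6 motifs the Chmp4b window held the ETS core alone. A match is a string of letters and no evidence of binding.

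The other CHMP genes stayed within 1.5-fold. Chmp5 stood at 2096, 1615 and 1664, with ratios of −0.38 (−0.47 to −0.28) and −0.33 (−0.43 to −0.24). Chmp3 stood at 2317, 1864 and 2022, with ratios of −0.31 and −0.20, the latter turning positive with equal totals. Chmp7, which recruits ESCRT-III to the nuclear envelope, stood at 1497, 1245 and 1244, with ratios of −0.27 in both comparisons. In TPM the ratios of Chmp3, Chmp5 and Chmp7 were positive. Chmp6, the link from ESCRT-II to CHMP4, had fewer counts and went the other way. It stood at 282, 305 and 379, with ratios of 0.12 (−0.13 to 0.37) and 0.43 (0.20 to 0.66). Chmp2a stood at 1721, 1460.0 and 1509, and its partner Chmp2b at 813, 828 and 867. Chmp1a stood at 1523, 1641 and 1493, and Chmp1b at 1589, 1200.1 and 1369. The reads of Chmp1b may be shared with a near relative on the X chromosome and with an antisense transcript over 24.0% of its exon bases, which leaves its value less certain.

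VPS4 ATPases, which recycle ESCRT-III, were close to level under the deposited scaling. The Vps4b ratio with Ocn-EV turned positive with equal totals and in TPM. Vps4b stood at 2517, 2427 and 2773, with ratios of −0.05 (−0.14 to 0.03) and 0.14 (0.06 to 0.22). Vps4a stood at 779, 845 and 807, with both counting intervals including no difference. Per kilobase, Vps4b exceeded Vps4a 1.52-fold in All-EV, 1.35-fold in Ocn-EV and 1.62-fold in Prx1-EV.

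The syntenin and ALIX genes of exosome biogenesis also stayed within 1.5-fold. Sdcbp stood at 17535, 15198 and 16064. The narrow intervals of its ratios, −0.21 (−0.24 to −0.17) and −0.13 (−0.16 to −0.10), exclude no difference, but both turned positive with equal totals. Pdcd6ip, which encodes ALIX, stood at 4503, 4890.3 and 4952, with ratios of 0.12 and 0.14. Arf6 stood at 3041, 3224 and 3224, with a ratio of 0.08 in both comparisons. Under the deposited scaling these 3 genes thus lay within 0.21 of All-EV on the log2 scale. Equal totals moved the median of all genes up by more than that, 0.26 with Ocn-EV and 0.22 with Prx1-EV.

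Among the Rab GTPases, the 3 abundant genes differed little and the 2 RAB27 genes were near the floor. Rab7, the late endosome to lysosome GTPase, stood at 5821, 5740.4 and 5955. Rab11a, of recycling endosomes, stood at 1647, 1539 and 1459, and Rab35, which acts at the plasma membrane, at 926, 979.5 and 967. The ratios of both lay between −0.17 and 0.08. That of Rab11a with Prx1-EV, −0.17 (−0.28 to −0.07), lay below no difference beyond counting error. Both Rab11a ratios turned positive with equal totals, as did the Rab7 ratio with Ocn-EV (−0.02). Rab27a, which docks exosome-bearing endosomes, had 4, 24 and 44 reads (4.53, 24.9 and 38.4 normalised counts). Rab27b had 3, 26 and 39 reads (3.40, 26.9 and 34.0). In both genes All-EV was the lowest library. The plain ratio for Rab27a was 5.49 (1.89 to 21.8) with Ocn-EV and 8.48 (3.09 to 32.5) with Prx1-EV. For Rab27b it was 7.93 (2.43 to 40.9) and 10.02 (3.19 to 50.7). Being under the expression minimum, they were not part of the counts above. The stromal marker list, whose reads were largely of Col1a1 and Col1a2, also had its lowest share of reads in All-EV. Its part here was not tested.

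Smpd3, which encodes neutral sphingomyelinase and is also a known bone and cartilage gene, stood at 18.1, 53.8 and 31.4. Ocn-EV was the highest library, with a plain ratio to All-EV of 2.97 (1.67 to 5.58), and Prx1-EV did not differ from All-EV beyond counting error (1.73, 0.938 to 3.35). An osteoblast list of 8 genes took 0.00224%, 0.0150% and 0.00603% of reads, in the same order. Smpd3 also shares 4.72% of its exon bases with Prmt7 on the other strand, which stood at 294, 438 and 477. The part of either in the Smpd3 values was not tested. The flotillins mark cholesterol-rich membrane and are common vesicle proteins. Flot2 stood at 1953, 1629 and 1773, and Flot1 at 851, 679 and 707. The Flot1 ratios were −0.32 and −0.27, and the Flot2 ratios −0.26 and −0.14, the last turning positive with equal totals and all 4 in TPM.

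Shares of reads between related genes do not depend on scaling between libraries. Among the reads of the 9 CHMP genes, Chmp4b took 30.8% (30.04 to 31.5), 24.3% (23.6 to 25.1) and 23.8% (23.1 to 24.4). Its share in All-EV lay above both others beyond counting error. Chmp1a took 8.91% (8.46 to 9.37), 12.2% (11.7 to 12.8) and 10.8% (10.3 to 11.3), lowest in All-EV. Between the related pair Chmp1a and Chmp1b, Chmp1a took 48.9% (47.1 to 50.8), 57.8% (55.9 to 59.6) and 52.2% (50.4 to 53.9) of reads. Chmp2a took 67.9% (66.0 to 69.9), 63.8% (61.8 to 65.8) and 63.5% (61.7 to 65.3) of the reads of both CHMP2 genes. Vps37a took 70.5% (67.4 to 73.5), 62.2% (59.3 to 65.0) and 67.8% (65.4 to 70.2) against Vps37b. Sdcbp took 79.6% (79.0 to 80.1), 75.7% (75.0 to 76.3) and 76.4% (75.9 to 77.0) of the reads of syntenin and ALIX. Rab11a took 62.3% (60.3 to 64.3), 60.5% (58.5 to 62.4) and 57.6% (55.8 to 59.4) against Rab11b. Vps4a took 23.6% (22.1 to 25.2), 25.8% (24.3 to 27.4) and 22.5% (21.3 to 23.8) of the reads of both VPS4 genes. In each of these 5 paralogue pairs some libraries differed beyond counting error, but intervals overlapped between All-EV and Prx1-EV for Chmp1a, Vps37a and Vps4a, between All-EV and Ocn-EV for Rab11a and Vps4a, and between Ocn-EV and Prx1-EV for Chmp2a and Rab11a. In the pairs Stam and Stam2, Flot1 and Flot2, Vps37b and Vps37c, and Rab27a and Rab27b, the intervals of all 3 libraries overlapped. Separate intervals can overlap although the shares differ beyond counting error, so overlap does not show equal shares.

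**Figure D3:**
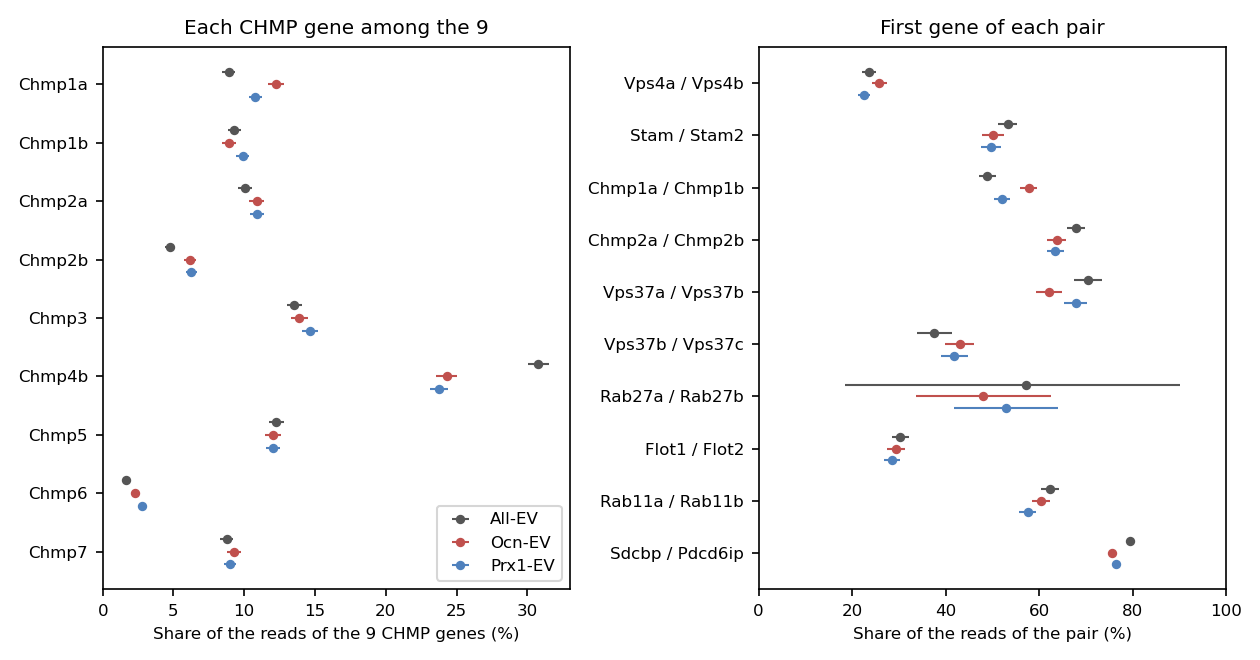
Left, share of each CHMP gene among the reads of the 9 (%). Right, share of the first gene among the reads of each pair (%). Points are libraries and bars are 95% Clopper-Pearson intervals. The Chmp4b share is 30.8% in All-EV and 24.3% and 23.8% in the others, and the Rab27 bars are wide because the pair has few reads.

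Between the 2 Cre-derived preparations differences were small, both in the machinery and over all genes. Within 0.2 of no difference (log2) lay 28 of the 30 genes and 67.6% of all genes. With Ocn-EV against Prx1-EV, 0 of the 30 genes were at least 1.5-fold higher, against 2.24% of all genes, and 0 were lower, against 1.3%. For a set of 30 genes, counts of 0 lie near these shares. The ratios ran from −0.31 for Chmp6 to 0.20 for Snf8, with a median of −0.05 against −0.01 for all genes. The counting interval lay above no difference for 2 genes, Snf8 and Chmp1a, against 15.8% of all genes, and below it for 10, against 20.3%. Of the 3 low genes, Rab27a and Rab27b did not differ beyond counting error, while Smpd3 had a log2 ratio of 0.76 (0.14 to 1.43).

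Among genes that work beside the machinery, some were more than 2-fold from All-EV. Over 8 lists of other ESCRT, Rab, fusion, lipid and uptake genes, 103 of 115 passed the expression minimum. With Ocn-EV 12 were at least 1.5-fold higher and 11 lower (11.7% and 10.7%, against 13.8% and 13.6% of all genes), and with Prx1-EV 13 and 12 (12.6% and 11.7%, against 12.7% of all genes each way). Among 15 accessory ESCRT genes, 1 was lower with Ocn-EV, the ESCRT-I subunit gene Mvb12a, and 0 were higher. With Prx1-EV 0 were past 1.5-fold.

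In the list of syndecans and phospholipase D genes, which supply and regulate syntenin cargo, 3 of 11 were higher and 2 lower with Ocn-EV, and 4 and 2 with Prx1-EV. Sdc2, a syndecan of mesenchymal cells, stood at 186, 649 and 564. Of the other syndecan genes, Sdc3 stood at 13522, 23375 and 23404, and Sdc4 at 1726, 2015 and 2124. Sdc1 went the other way, at 2588, 1811 and 1730. Cyth1, an exchange factor that activates ARF proteins, stood at 1269, 2766 and 2264. Src, a kinase that phosphorylates syndecan and syntenin, stood at 1253, 590.2 and 571. All-EV was thus the lowest library for Sdc2 and Cyth1 and the highest for Src, with log2 ratios of 1.80, 1.12 and −1.08 for Ocn-EV and 1.60, 0.83 and −1.13 for Prx1-EV.

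Of 14 other endosomal Rab genes, Rab7b and Rab31 were at least 1.5-fold higher and Rab9 lower in both comparisons. Rab9, which returns cargo from late endosomes to the Golgi, stood at 1436, 607 and 553, with log2 ratios of −1.24 and −1.37. Of 14 Rab effectors and regulators, 3 were higher and 3 lower in each comparison. Sytl2, a synaptotagmin-like effector of RAB27, stood at 84.9, 235 and 197. Rilp, the RAB7 effector that recruits dynein, stood at 34.0, 90.1 and 66.3, so it passed the expression minimum only through the libraries where it was higher, and its count here rests on that. Rab11fip1, a RAB11 effector, stood at 549, 207 and 188. The effectors Sytl2 and Rilp were lowest in All-EV, with log2 ratios of 1.46 and 1.38 for Ocn-EV, and Rab11fip1 was highest there, with −1.40.

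Of 17 SNARE genes, Stx8 and Vti1b, partners in late endosome fusion, were lower in both comparisons and 0 were higher. In the sphingomyelin and ceramide list of 13, 2 were higher and 1 lower with Ocn-EV, and 2 and 2 with Prx1-EV. Smpd4, another neutral sphingomyelinase, stood at 161, 317 and 359. Of the 8 HOPS and CORVET tethering genes, Vps33a was higher in both comparisons and 0 were lower. In the clathrin and caveolae list of 11, the pair that builds caveolae went opposite ways. Cav1, the caveolin coat protein, stood at 2602, 1233 and 1589, and Cavin1, its coat adaptor, at 320.3, 1131 and 844. Their log2 ratios were −1.08 and 1.82 with Ocn-EV and −0.71 and 1.39 with Prx1-EV.

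**Figure D4:**
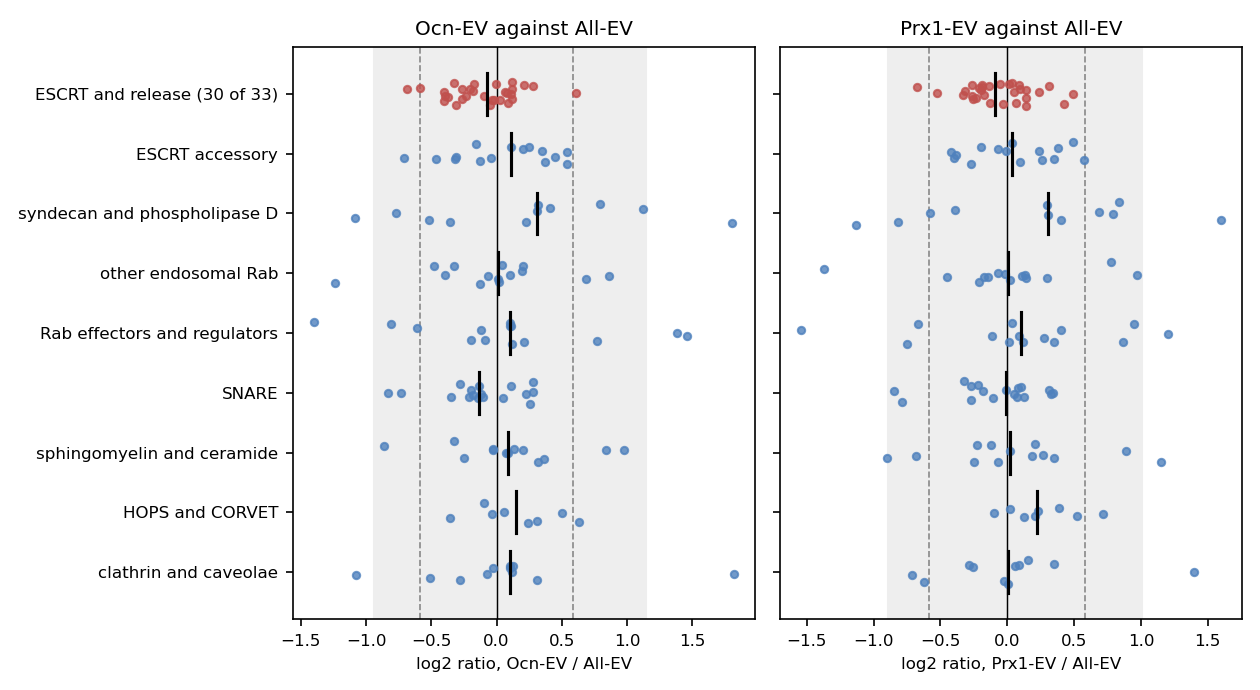
Log2 ratios to All-EV of the 30 ESCRT and release genes past the minimum (red) and of 8 related lists (blue), 1 point per gene, with list medians as black bars, 1.5-fold as dashed lines and the central 90% of all genes in grey. The red points span −0.69 to 0.60 in the left panel, and several lists have points past 1 or −1.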

How the data were processed

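Sequencing libraries for messenger RNA were made from 100 ng of total RNA of 3 cultures, 1 per group. The deposited values are a normalised signal per gene, made by the authors. The submitters' processing notes list DESeq2 2.11.40.8, featureCounts 2.0.3, FastQC 0.74, HISAT2 2.2.1, Trimmomatic 0.38.1 and the build mm10, with neither order nor settings. Whether counting used strand is not stated in these sources. Within each library 100% of values were whole multiples of 1 read (tolerance 1e-06), so whole reads were recovered by division.

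Symbols came from RefSeq (GRCm38.p6) for 25275 of 27179 identifiers, and transcript lengths and GC content from GENCODE vM21, longest transcript per gene, for 97.6% of the 11067 genes whose mean over the libraries reached 50. Ratios and counts of genes past 1.5-fold were computed over all these genes with Python 3.11.15, pandas 2.3.3 and scipy 1.17.1. Intervals are 95% exact conditional binomial (Clopper-Pearson) from recovered reads, and cover counting error only, since each group has 1 library. No step that marks PCR copies is listed, and unmarked copies would make the intervals too narrow. With 1 library per group no count model can be fitted between conditions. The intervals excluded no difference, above or below, for 3542 and 3868 genes with Ocn-EV and 3653 and 3729 with Prx1-EV against All-EV, which compares libraries. The calculations were tested on simulated data.

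The 33 genes, the lists and the rules were chosen with earlier results of these data known. Named were all genes of the set, with values in each library for those past 1.5-fold, the most abundant per role and the paralogue pairs. From each related list, genes at least 2-fold from All-EV in either comparison were named with values, at most 3 each way. Other genes named, and the shares among the CHMP genes, were chosen after their values were seen. Alternatives were equal totals, TMM factors from edgeR 4.0.16, pseudocounts of 0.5 and 5, minimum means of 10 and 200 or none, a 2-fold threshold, correction for transcript length and GC content and, added after seeing the data, TPM.

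Marker lists for endothelial (6 genes), neutrophil (8), B lymphoid (5) and erythroid (6, with 5 analysed here) cells took at most 0.0142%, 0.000341%, 0.000267% and 0.000193% of reads in any library.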

Additional observations from a re-analysis of the deposited data

How the results depend on the processing

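No paired analysis was possible because each group has 1 library. In the counts of genes at least 1.5-fold apart, the 3 with Ocn-EV against All-EV became 1 with equal totals (Vps37b), 6 with a minimum of 10 or no minimum (Rab27a, Rab27b and Smpd3 added), and 0 with the length and GC trend removed or at 2-fold. The 1 with Prx1-EV against All-EV became 2 higher with equal totals (Vps37b and Chmp6), 4 with a minimum of 10 or none, 4 higher in TPM, and 0 with the trend removed or at 2-fold. The 0 between Ocn-EV and Prx1-EV became 2 with a minimum of 10 or none. In TPM the 3 with Ocn-EV were all higher (Vps37b, Vps37c and Vps25), where 34.9% of all genes were higher and 4.26% lower (33.8% and 3.97% with Prx1-EV). With a minimum of 10, 17.1% and 15.0% of all genes were higher and lower with Ocn-EV, 15.3% and 14.7% with Prx1-EV, and 6.19% and 3.75% between the 2. With no minimum these shares were 15.4% and 13.4%, 14.3% and 13.5%, and 9.68% and 7.66%. With the trend removed they were 12.5% and 11.3% with Ocn-EV, and 11.5% and 10.6% with Prx1-EV. At 2-fold they were 6.27% and 4.20% with Ocn-EV, and 5.12% and 3.66% with Prx1-EV.

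The set's median log2 ratio moved from −0.08 to 0.18 with equal totals and 0.34 in TPM for Ocn-EV. For Prx1-EV it moved from −0.09 to 0.14, 0.30 and, with the trend removed, 0.045. The median of all genes moved by 0.26 and 0.41 with Ocn-EV and by 0.22 and 0.39 with Prx1-EV under equal totals and TPM, so relative to it the set lay between −0.09 and −0.06. With the length and GC trend removed the set's median was 0.03 with Ocn-EV, and relative to all genes the sign turned (0.047 and 0.045). With a minimum of 10 it was −0.04 and −0.03 relative to all genes. With the 10 genes of most reads left out of the totals, the set's share of reads was 0.446% (All-EV), 0.452% (Ocn-EV) and 0.461% (Prx1-EV). Chmp4b was below All-EV under every scaling tried (−0.28 and −0.29 in TPM). The cause of these shifts was not tested.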

Other observations

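Some genes around the machinery were left out of the comparisons by the expression minimum. Mlph, a RAB27A effector of pigment granules, had 3, 31 and 20 reads in the order All-EV, Ocn-EV, Prx1-EV. Its log2 ratio was 2.91 (1.56 to 5.59) with Ocn-EV and 2.07 (0.61 to 4.76) with Prx1-EV. Chmp4c, the CHMP4 relative of the abscission checkpoint, had 0, 3 and 7 reads. Vamp7, a SNARE of late endosomes and lysosomes, was listed at 0 in all 3 libraries and had no transcript length in the annotation used, so the listed 0 gives no limit on its expression. The X-linked gene 2610002M06Rik, whose other name is Chmp1b2, stood at 292, 317 and 346.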
